A study of Mus musculus with 2 samples.

Results

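The genes described here are 10 genes of the muscle Z-disc and the response of muscle to stretch, namely Igfn1, Actn2, Actn3, Myoz1, Myoz2, Myoz3, Ankrd1, Ankrd2, Lmcd1 and Ldb3. They were taken by symbol from the 53700 features of the deposited matrices, and all 10 had UMIs in both libraries. Igfn1 was listed because its ratio between the genotypes stood among the highest in an earlier look at the same libraries, and the other 9 were listed with such results known. Every ratio between genotypes given here is therefore a description. The nuclei were isolated from quadriceps, a thigh muscle, and the C57BL/6N mice were 3 months old. One genotype was WT and the other was a PTRF knockout, where PTRF is the older name of Cavin1, a coat protein of the small membrane pits called caveolae. Each genotype was a single library of nuclei in droplets, so that no difference between genotypes could be tested and no replicate error exists. The sources used here do not give the number of animals per library, their sex or how the allele was made.

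The Z-disc is the plate at each end of a sarcomere where actin filaments of opposite orientation are held together by alpha-actinin. Alpha-actinin in turn binds a set of adaptor proteins, among them the myozenins, which tether the phosphatase calcineurin, and the PDZ and LIM domain protein encoded by Ldb3. Proteins of the muscle ankyrin repeat family bind titin and can move to the nucleus, and their genes are known to respond to stretch and load. Several of these genes are also known to differ between fast and slow fibres, which are told apart by their myosin heavy chain: Myh4 in type IIB, Myh1 in type IIX, Myh2 in type IIA and Myh7 in type I fibres.

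Upstream sequence is shown for 3 genes, since Igfn1 had the largest ratio between genotypes, Ankrd2 the lowest, and Myoz2 ratios of opposite sign in different nuclei. The RefSeq table of promoter windows, which covers 250 bases before to 50 bases after each gene start on GRCm38.p6, had an entry for 7 of the 10 genes and none for Actn3, Myoz1 and Myoz3. Printed are the bases before the first annotated exon, 5′ to 3′ on the strand of the gene, with the E-box (CANNTG) in capitals. The Igfn1 stretch is chr1:136006343-136006592 on the minus strand, the Ankrd2 stretch is chr19:42035777-42035999 on the plus strand, and the Myoz2 stretch is chr3:123035016-123035237 on the minus strand.
Igfn1: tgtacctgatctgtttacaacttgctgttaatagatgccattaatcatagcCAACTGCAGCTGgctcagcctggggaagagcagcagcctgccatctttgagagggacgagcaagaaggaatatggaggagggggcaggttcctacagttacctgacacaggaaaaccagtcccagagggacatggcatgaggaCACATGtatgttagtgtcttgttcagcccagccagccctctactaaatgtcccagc
Ankrd2: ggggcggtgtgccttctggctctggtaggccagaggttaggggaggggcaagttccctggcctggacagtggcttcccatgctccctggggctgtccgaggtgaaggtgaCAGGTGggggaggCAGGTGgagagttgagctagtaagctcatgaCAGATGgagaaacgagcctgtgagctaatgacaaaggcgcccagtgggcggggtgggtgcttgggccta
Myoz2: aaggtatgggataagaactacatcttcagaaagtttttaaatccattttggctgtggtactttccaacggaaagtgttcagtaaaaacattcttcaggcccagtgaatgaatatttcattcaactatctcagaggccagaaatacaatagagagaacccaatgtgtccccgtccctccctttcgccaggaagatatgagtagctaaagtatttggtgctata
The Igfn1 stretch held 3 E-boxes, of which a pair lay side by side, the Ankrd2 stretch held 3 and the Myoz2 stretch 0. Over the full windows of 300 bases and both strands, 6 of the 7 genes held an E-box, against 72.3% of all 32851 windows in the table. The MCAT element (CATTCC) was in the window of Ankrd1 alone and in 14.7% of all windows. The MEF2 site was in that of Myoz2 alone, outside the printed stretch, and in 3.19% of all windows. The CArG box was in those of Ldb3 and Lmcd1 and in 1.63% of all windows. No measurement here bears on binding at these letters.

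Levels are counts per 1000000 (CPM), the UMIs of a gene per 1000000 UMIs of a group of nuclei, and the range after a level or ratio is its 95% interval for counting error only. The WT library held 10272 kept nuclei with a median of 703 UMIs, and the knockout library 7762 with a median of 1562 UMIs. Cavin1 stood at 7.70 CPM in WT against 0.125 CPM in the knockout. All 8 genes of a list of general myonuclear transcripts were detected in both libraries. Y-linked UMIs without Xist were found in 2721 WT and 3103 knockout nuclei, whereas Xist without Y-linked UMIs was found in 2 WT and 1527 knockout nuclei. Several results that rest on all knockout nuclei are therefore also given for nuclei marked by the Y chromosome in both libraries. The libraries shared 24 cell barcodes. Rn18s took 8.07% of the UMIs in WT and 2.90% in the knockout. A reduced denominator, without Rn18s, Malat1, Ttn, Gm10800, Gm10801 and mitochondrially encoded genes, shifted every log2 ratio by -0.13 in the nuclei led by Myh4, Myh1 or Myh2, by -0.14 in Col22a1-positive and by -0.20 in Myh7-led nuclei.

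Nuclei were grouped by the myosin heavy chain gene with the most UMIs. There were 6729 Myh4-led nuclei in WT and 4895 in the knockout. Myh1-led nuclei numbered 1058 and 646, Myh2-led nuclei 682 and 313, and Myh7-led nuclei 16 and 40. Nuclei with at least 1 UMI of Col22a1, a collagen of the myotendinous junction, numbered 200 and 307 and overlap the myosin groups. As a reference for RNA from other nuclei in the droplets, the same genes were read in non-muscle-marked nuclei. These had at least 3 UMIs from 32 markers of non-muscle cells and numbered 239 in WT and 1404 in the knockout. Nuclei led by a myosin gene were not excluded, so the group can overlap the myosin groups and is not a pure background. In WT it held Myoz2 at 65.7 CPM, against 63.8 CPM in all nuclei. A level under that of this group therefore does not show that expression was absent. These non-muscle-marked nuclei still held myonuclear transcripts, 35205 CPM for the list of 8 in WT and 15021 CPM in the knockout, against 94565 and 68712 CPM in Myh4-led nuclei.

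Of the 40 ratios given for the 10 genes, 11 were past 2-fold between the libraries. Igfn1 and Myoz2 were past it in 3 groups of nuclei each and Ankrd2 in 2, with Myoz2 lower in 1 group and higher in 2. A ratio was given where both libraries together had at least 20 UMIs, which held for 10 genes in Myh4-led, 9 in Myh1-led, 8 in Myh2-led, 4 in Myh7-led and 9 in Col22a1-positive nuclei. In Myh4-led nuclei 1 of 10, Igfn1, was more than 2-fold higher in the knockout, against 5.33% of all genes with a ratio, and 2 of 10, Myoz2 and Ankrd2, were more than 2-fold lower, against 21.6%. In Myh1-led nuclei 2 of 9, Igfn1 and Myoz2, were higher, against 8.23%, and 0 of 9 lower, against 5.80%. In Myh2-led nuclei 0 of 8 were higher, against 9.99%, and 2 of 8, Actn3 and Ankrd2, were lower, against 4.91%. In Myh7-led nuclei 1 of 4, Lmcd1, was higher, against 27.7%, and 0 of 4 lower, against 6.32%. In Col22a1-positive nuclei 2 of 9, Igfn1 and Myoz2, were higher, against 12.9%, and 1 of 9, Ankrd1, was lower, against 6.54%. Since the genes were listed with these ratios known, nothing is read from the counts beyond which genes they name.

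The median log2 ratio of the listed genes with a ratio was -0.09 in Myh4-led nuclei, where that of all genes was -0.07. It was -0.10 against 0.14 in Myh1-led, -0.41 against 0.19 in Myh2-led, 0.56 against 0.31 in Myh7-led and -0.03 against 0.15 in Col22a1-positive nuclei. The ratios nearest to the 2-fold line on the log2 scale were 1.01 for Myoz2 in Col22a1-positive nuclei on its outer side, and 0.85 for Myoz3 in Myh1-led and -0.82 for Lmcd1 in Myh2-led nuclei on its inner side. Ankrd1 had the fewest UMIs of the 10, with 30 in all WT and 26 in all knockout nuclei.

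**Figure D1:**
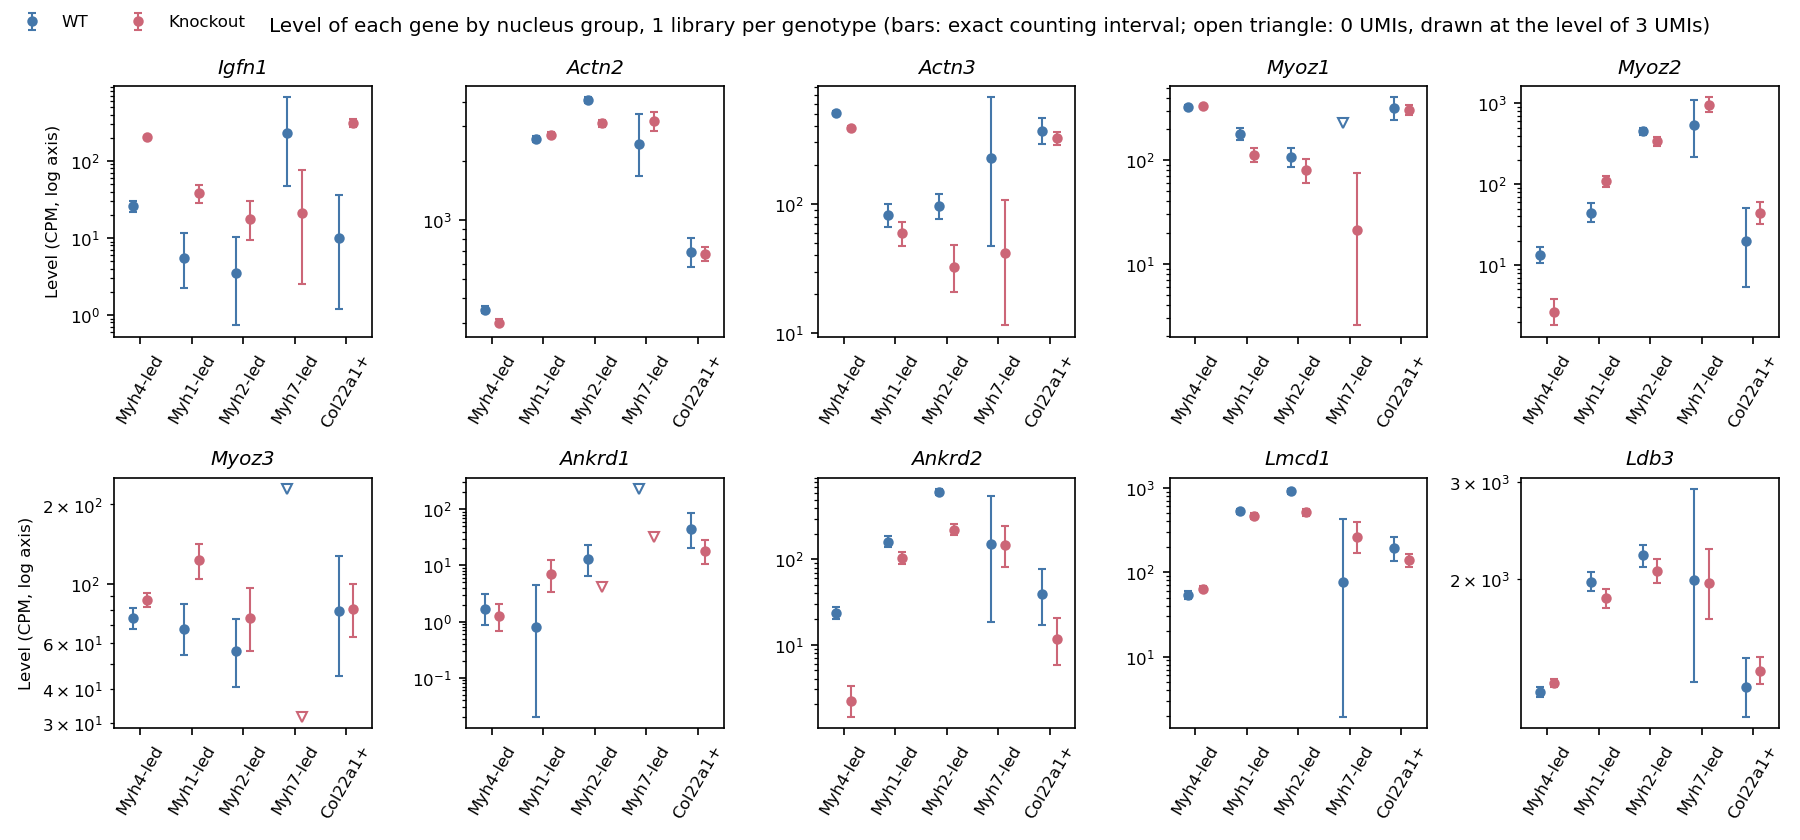
Level of each of the 10 genes (CPM, log axis) in nuclei grouped by leading myosin gene and in Col22a1-positive nuclei, in the WT and the knockout library; bars are 95% counting intervals and open triangles mark 0 UMIs at the level of 3 UMIs. Igfn1 stood higher in the knockout in Myh4-led and Col22a1-positive nuclei, while the levels of Ldb3 lay close together in both libraries.

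**Figure D2:**
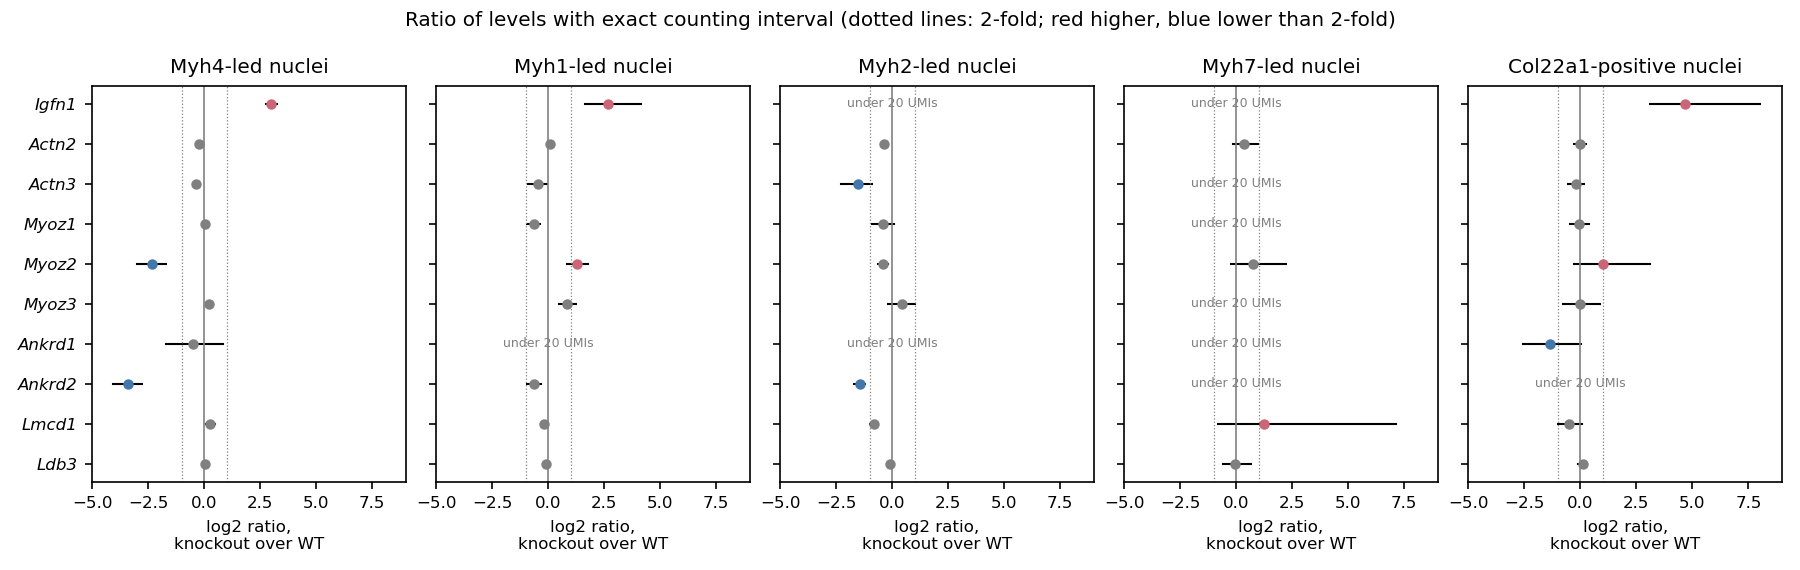
Log2 ratio of the level in the knockout over that in WT for each gene and group of nuclei, with its 95% counting interval; dotted lines mark 2-fold, and red and blue points lie beyond it. Igfn1 lay at 2.99 in Myh4-led nuclei, and Myoz2 lay at -2.32 in Myh4-led but at 1.29 in Myh1-led nuclei.

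Igfn1 encodes a large protein of immunoglobulin and fibronectin type III domains that binds the Z-disc protein KY. The gene lies at chr1:135953578-136006342 on the minus strand of GRCm38, with no overlapping gene. In Myh4-led nuclei the Igfn1 level was 25.8 CPM (22.0 to 30.0, 166 UMIs) in WT and 205 CPM (197 to 214, 2328 UMIs) in the knockout, 7.95-fold higher (6.81 to 9.38). The WT level lay within the interval of the non-muscle-marked nuclei of that library, 18.3 CPM (5.93 to 42.6, 5 UMIs), and above the intervals of its Myh1-led and Myh2-led nuclei, 5.58 CPM (2.24 to 11.5) and 3.55 CPM (0.733 to 10.4). The knockout level lay above that of its non-muscle-marked nuclei, 34.1 CPM (27.4 to 41.9).

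The share of Myh4-led nuclei with an Igfn1 UMI showed the same order at equal depth. Each nucleus was thinned to 500 UMIs and grouped again from the thinned counts. The share was then 0.958% (0.705 to 1.27) of 4904 WT nuclei and 8.03% (7.17 to 8.96) of 3660 knockout nuclei. In non-muscle-marked nuclei it was 0 of 93 in WT (0 to 3.89%), where 3 nuclei would be 3.23%, and 0.744% (0.242 to 1.73) of 672 in the knockout. The shares before thinning were 1.59% at a median of 729 UMIs in WT and 17.2% at a median of 1809 UMIs in the knockout, and 1181 WT and 0 knockout nuclei were too shallow to be thinned. The non-muscle-marked nuclei had medians of 849 and 1352.5 UMIs, and 1.26% of them in WT and 3.49% in the knockout held an Igfn1 UMI before thinning.

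Igfn1 UMIs were unevenly spread over the knockout nuclei. Of the 4895 Myh4-led knockout nuclei, 843 held at least 1 Igfn1 UMI and 286 held at least 3, and these 286 nuclei carried 68.9% of the Igfn1 UMIs, with a highest count of 30. In WT, 107 of 6729 nuclei held at least 1 and 12 held at least 3. The highest WT count, 13 UMIs, came from 1 of the 2 WT nuclei that carried Xist and no Y-linked UMI; its barcode was not found in the knockout library. Without it the WT level in Myh4-led nuclei was 23.8 CPM (20.2 to 27.9), and the log2 ratio was 3.11 in place of 2.99. The 24 barcodes found in both libraries held 0 Igfn1 UMIs in WT and 15 in the knockout.

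Subsets of the Myh4-led nuclei gave the same direction. In nuclei marked by the Y chromosome the Igfn1 level was 16.5 CPM (11.8 to 22.4) in WT and 187 CPM (177 to 198) in the knockout, a log2 ratio of 3.49. Within the knockout library the level was higher in Xist-marked nuclei, 323 CPM (290 to 359), than in Y-marked nuclei. In nuclei with 500 to under 1000 UMIs the log2 ratio was 3.11, in those with 1000 to under 2000 UMIs it was 3.32 and in deeper nuclei 2.85, so that the knockout stood higher at each of these depths. In Myh4-led nuclei without any other myosin UMI the log2 ratio was 3.11, a split chosen after the data were seen. In Myh4-led nuclei that also held Myh1 or Myh2 UMIs the level was 34.8 CPM (22.8 to 51.1) in WT and 96.7 CPM (75.9 to 121) in the knockout.

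Outside the Myh4-led nuclei Igfn1 was low in most groups. In Myh1-led nuclei its level was 5.58 CPM (2.24 to 11.5, 7 UMIs) in WT and 37.9 CPM (28.5 to 49.3, 55 UMIs) in the knockout, a log2 ratio of 2.68 (1.63 to 4.14). The interval of the knockout level there overlapped that of the non-muscle-marked nuclei. Within the Myh1-led knockout nuclei the Igfn1 level was 15.8 CPM (8.19 to 27.7) where Y-marked and 91.1 CPM (57.7 to 137) where Xist-marked, and the Myh4 level was 140 and 210 CPM. The interval of the Xist-marked nuclei lay above that of the non-muscle-marked nuclei, and that of the Y-marked nuclei overlapped it. Myh2-led nuclei held 3 Igfn1 UMIs in WT and 13 in the knockout, and Myh7-led nuclei 3 and 2. The 3 UMIs of the Myh7-led WT nuclei made 229 CPM (47.2 to 669), the highest WT level of the groups. They came from 6.25% of only 16 nuclei, so no high level is read from them. The order of Igfn1 levels in the knockout was Col22a1-positive, Myh4-led, Myh1-led, Myh7-led and Myh2-led nuclei, with overlapping intervals among the last 3.

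**Figure D3:**
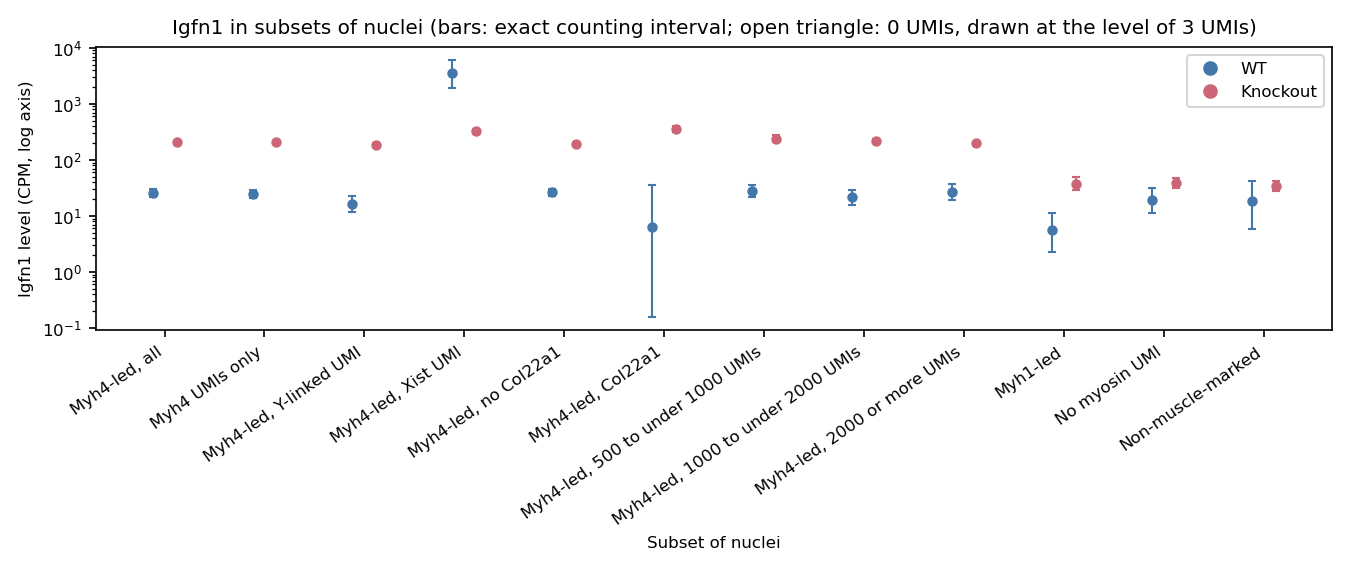
Igfn1 level (CPM, log axis) in subsets of nuclei of the WT and the knockout library, with 95% counting intervals; the WT point for Xist-marked nuclei is 2 nuclei, with all 13 UMIs from 1 of them. The knockout stood above WT in the Myh4-led subsets except for those 2 nuclei, and the level of non-muscle-marked nuclei is shown at the right.

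**Figure D4:**
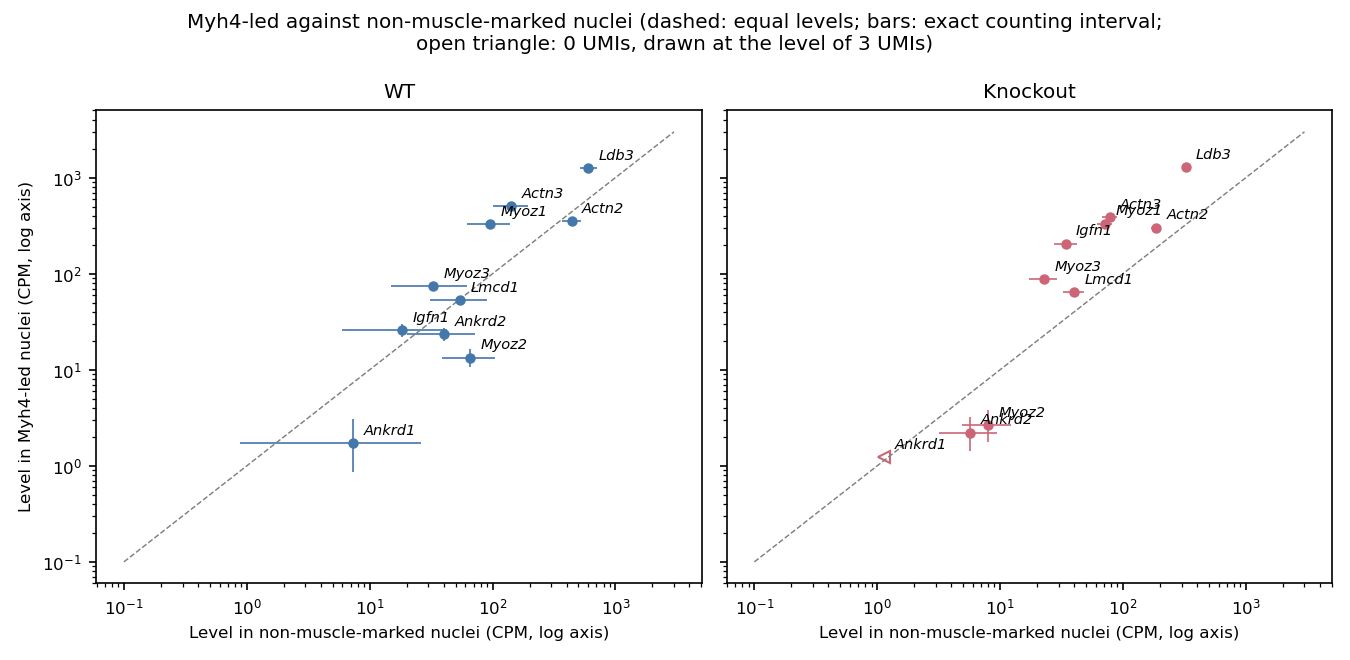
Level of each gene in Myh4-led nuclei (vertical, CPM, log axis) against that in non-muscle-marked nuclei (horizontal, CPM, log axis) in each library, with 95% counting intervals; the dashed line marks equal levels. In WT the points of Igfn1, Lmcd1, Ankrd1 and Ankrd2 lay within counting error of the line and those of Myoz2 and Actn2 below it. In the knockout Igfn1 lay above it.

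Actn2 and Actn3 encode the alpha-actinins of skeletal muscle, Actn2 in all fibres and Actn3 in fast fibres. Their levels followed the myosin groups in both libraries, with small differences between genotypes. In Myh4-led nuclei the Actn3 level was 505 CPM (488 to 523) in WT and 390 CPM (379 to 402) in the knockout, a log2 ratio of -0.37. In Myh1-led nuclei it was 82.1 CPM (67.0 to 99.6) and 59.3 CPM (47.4 to 73.2), and in Myh2-led nuclei 95.9 CPM (76.2 to 119) and 32.5 CPM (20.8 to 48.4). Actn3 was thus lower in the knockout in each of these 3 groups, and more than 2-fold lower in Myh2-led nuclei only, with a log2 ratio of -1.54 (-2.28 to -0.89). In Y-marked Myh2-led nuclei its level was 47.5 CPM in WT against 40.6 CPM in the knockout, a log2 ratio of -0.21. In non-muscle-marked nuclei the Actn3 level was 142 CPM in WT against 78.0 CPM in the knockout. Its levels in Myh1-led and Myh2-led nuclei lay at or under these, and no difference in expression is read from them.

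Actn2 ran in the opposite order over the groups, being lowest in Myh4-led nuclei of both libraries. Its level in WT was highest in Myh2-led nuclei at 4063 CPM (3928 to 4201) and in Myh4-led nuclei it was 351 CPM (337 to 366), and in the knockout these levels were 3109 CPM (2983 to 3239) and 302 CPM (292 to 313). The Myh7-led knockout nuclei, with 3173 CPM (2826 to 3552), were within counting error of the Myh2-led ones. The log2 ratio was -0.39 in Myh2-led and -0.22 in Myh4-led nuclei. In Myh1-led nuclei the log2 ratio was 0.07 (0.01 to 0.14), and it was -0.06 with the reduced denominator. In Myh4-led nuclei the log2 ratio of Actn2 varied with depth, 0.02 at 500 to under 1000 UMIs, -0.06 at 1000 to under 2000 UMIs and -0.79 in deeper nuclei. The WT level of Actn2 in Myh4-led nuclei lay under that of the non-muscle-marked nuclei, 442 CPM (367 to 528), and the difference between genotypes in that group is not read as one of expression.

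Within the Myh4-led knockout nuclei, Actn2 differed by more between subsets than between genotypes. The 386 nuclei with a UMI of Nr4a3, which encodes a nuclear receptor that is induced by exercise, had an Actn2 level of 1228 CPM (1162 to 1297), and the 4509 nuclei without it had 207 CPM (199 to 216). Their median depths were 2300.5 and 1773 UMIs. Lmcd1 stood at 156 CPM (133 to 181) in the nuclei with Nr4a3 and 54.6 CPM (50.2 to 59.3) in those without. Igfn1 stood at 125 CPM (105 to 148) and 214 CPM (205 to 223), and Actn3 at 239 CPM (210 to 270) and 406 CPM (394 to 418), so that these levels ran the other way. WT had 18 Myh4-led nuclei with Nr4a3, in which Actn2 was at 958 CPM (631 to 1394) against 349 CPM (334 to 363) in those without. This split was chosen after the data were seen.

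Actn2 also differed between the knockout nuclei marked by Xist and by the Y chromosome. In Myh2-led nuclei its level was 1786 CPM (1610 to 1977) where Xist-marked and 3945 CPM (3738 to 4161) where Y-marked. In Myh1-led nuclei the levels were 1220 CPM (1087 to 1364) and 3363 CPM (3234 to 3496), and in Myh4-led nuclei 191 CPM (166 to 219) and 314 CPM (301 to 328). Xist-marked nuclei were thus lower in Actn2 in all 3 groups. In Y-marked nuclei of both libraries the log2 ratio of Actn2 was -0.31 in Myh2-led, 0.24 in Myh1-led and -0.40 in Myh4-led nuclei. How sex and other properties of the animals contribute cannot be told apart here.

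The balance of the alpha-actinins, taken as the share of Actn3 in the UMIs of Actn2 and Actn3 and not corrected for gene length, told Myh4-led nuclei from the others in both libraries. In Myh4-led nuclei it was 59.0% (57.7 to 60.3) in WT against 56.4% (55.3 to 57.5) in the knockout. In Myh1-led nuclei it was 3.08% (2.52 to 3.73) and 2.14% (1.71 to 2.63), and in Myh2-led nuclei 2.31% (1.84 to 2.86) and 1.03% (0.664 to 1.54). The genotypes thus differed by little beside the difference between groups.

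**Figure D5:**
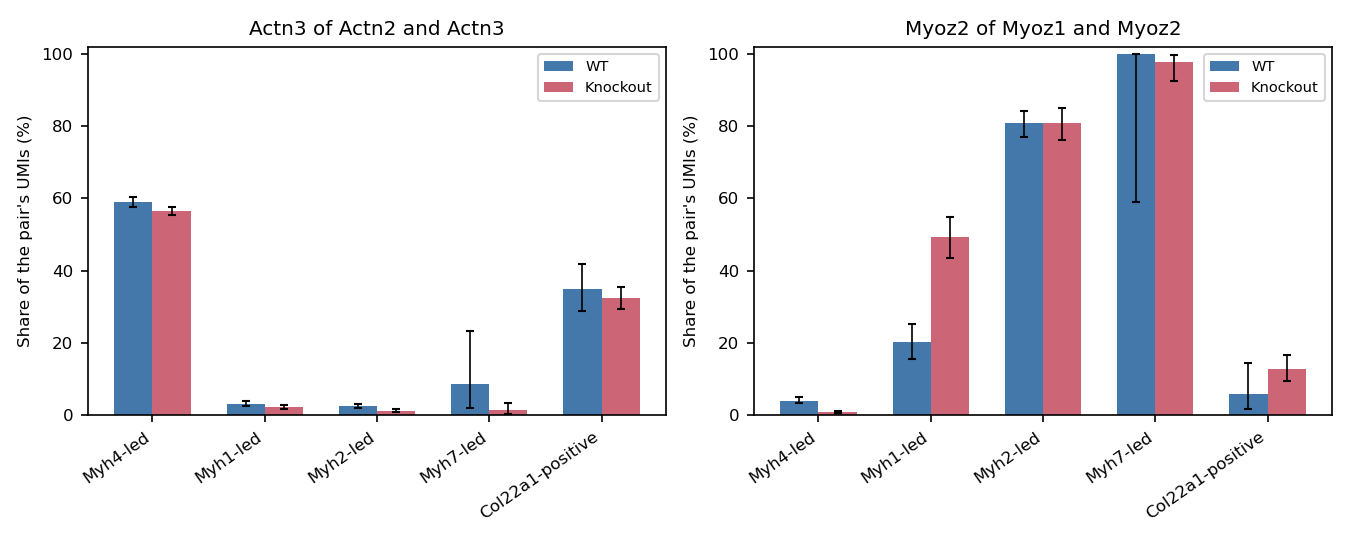
Share of Actn3 in the UMIs of Actn2 and Actn3 (left) and of Myoz2 in the UMIs of Myoz1 and Myoz2 (right), in percent, by group of nuclei in the WT and the knockout library, with 95% exact binomial intervals. The share of Myoz2 in Myh1-led nuclei was 20.1% in WT and 49.2% in the knockout, while that in Myh2-led nuclei was 80.9% and 81.0%.

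Myoz1 and Myoz2 ran in opposite orders over the groups in both libraries, with some neighbouring intervals overlapping. Myoz1 and Myoz3 are known as myozenins of fast fibres, and Myoz2 as that of slow fibres and the heart. Myoz2 was not confined to the Myh7-led group. In Myh2-led nuclei it made up 80.9% of the UMIs of Myoz1 and Myoz2 in WT and 81.0% in the knockout. Myoz1 was at 326 CPM (312 to 340) in WT and 333 CPM (323 to 344) in the knockout in Myh4-led nuclei, so that its intervals overlapped; its log2 ratio of 0.03 turned to -0.10 with the reduced denominator, and no direction is given. In Myh1-led nuclei Myoz1 was at 178 CPM (155 to 203) and 113 CPM (96.4 to 132), a log2 ratio of -0.65, and in Myh2-led nuclei at 107 CPM (85.7 to 131) and 79.9 CPM (60.8 to 103). The Myoz1 level in non-muscle-marked nuclei was 95.0 CPM (62.0 to 139) in WT and 71.2 CPM (61.4 to 82.1) in the knockout, and the Myh2-led levels lay within counting error of it.

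Myoz2 had the widest span of ratios between the groups, on both sides of 0. In Myh7-led nuclei, the slow group, it was at 534 CPM (215 to 1101) in WT and 967 CPM (779 to 1186) in the knockout, and in Myh2-led nuclei at 450 CPM (406 to 498) and 341 CPM (300 to 386). In Myh1-led nuclei Myoz2 was at 44.6 CPM (33.7 to 58.0) in WT and 110 CPM (93.2 to 128) in the knockout, 2.44-fold higher (1.80 to 3.39). In Myh4-led nuclei it was at 13.4 CPM (10.7 to 16.5) and 2.65 CPM (1.79 to 3.78), 4.99-fold lower (3.29 to 7.92). The levels of Myoz2 in non-muscle-marked nuclei were 65.7 CPM (39.0 to 104) in WT and 7.95 CPM (4.92 to 12.2) in the knockout, with a log2 ratio of -3.05. The Myh4-led levels lay under these in both libraries, so that no difference in expression is read from them. The source of their Myoz2 UMIs was not tested. Myoz2 also varied within the Myh4-led group, by a split chosen after the data were seen. WT nuclei that also held Myh1 or Myh2 UMIs had 48.2 CPM, against 8.80 CPM without any other myosin UMI. The knockout values were 22.2 and 1.23 CPM. The WT level in Myh1-led nuclei lay within the interval of the non-muscle-marked nuclei, whereas the knockout level lay above that of its own library.

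The Myoz2 ratio in Myh1-led nuclei depended on which knockout nuclei were read. In Y-marked nuclei the level was 44.7 CPM (29.4 to 65.0) in WT and 135 CPM (110 to 163) in the knockout, a log2 ratio of 1.57. In the Xist-marked Myh1-led knockout nuclei it was 35.6 CPM (16.3 to 67.7, 9 UMIs), and set against Y-marked WT nuclei the log2 ratio was -0.27. At equal depth of 500 UMIs, 1.36% (0.680 to 2.42) of 810 WT and 4.35% (2.71 to 6.57) of 483 knockout Myh1-led nuclei held a Myoz2 UMI. Of the non-muscle-marked nuclei it was 0 of 93 in WT (0 to 3.89%), where 3 nuclei would be 3.23%. In the knockout it was 0.149% (0.00377 to 0.826) of 672. Before thinning the shares were 3.50% of the Myh1-led nuclei in WT and 14.7% in the knockout. The gene lies at chr3:123006206-123035015 on the minus strand of GRCm38 and overlaps the small gene model Gm22066 on its own strand, so that a part of its UMIs could be of other origin.

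Among the 5 groups Myoz3 had its largest ratio in Myh1-led nuclei. Its level there was 67.7 CPM (54.1 to 83.8) in WT and 123 CPM (105 to 142) in the knockout, a log2 ratio of 0.85 (0.48 to 1.25). In Myh4-led nuclei it was at 74.4 CPM (67.9 to 81.4) and 87.1 CPM (81.8 to 92.7), and in Myh2-led nuclei at 55.7 CPM (40.9 to 74.0) and 74.5 CPM (56.1 to 97.0). The order of the WT levels over the 4 groups with UMIs was not resolved, since each neighbouring pair of intervals overlapped. In the knockout the Myh1-led level stood above the other groups. The non-muscle-marked nuclei held Myoz3 at 32.9 CPM (15.0 to 62.4) in WT and 22.7 CPM (17.3 to 29.2) in the knockout, so that only the intervals of the WT library overlapped those of Myh1-led nuclei. Within the Myh1-led knockout nuclei Myoz3 was at 147 CPM (121 to 177) where Y-marked and 63.4 CPM (36.2 to 103) where Xist-marked. Myoz3 was found in 0 Myh7-led nuclei of either library, at a level of 3 UMIs of 229 CPM in WT against 31.5 CPM in the knockout.

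Of the muscle ankyrin repeat genes, Ankrd2 was lower in the knockout in each myosin group with a ratio. In Myh2-led nuclei, where it was highest, the Ankrd2 level was 612 CPM (561 to 667, 517 UMIs) in WT and 223 CPM (191 to 260, 165 UMIs) in the knockout, 2.73-fold lower (2.30 to 3.29). In Myh1-led nuclei it was at 161 CPM (140 to 185) and 104 CPM (88.1 to 122), a log2 ratio of -0.63. In Myh4-led nuclei it was at 23.5 CPM (19.9 to 27.5) and 2.21 CPM (1.43 to 3.26), 10.5-fold lower (6.93 to 16.9). These last levels lay under or within the intervals of the non-muscle-marked nuclei, 40.2 CPM (20.1 to 71.9) in WT and 5.68 CPM (3.18 to 9.37) in the knockout, where the log2 ratio was -2.84. No difference in expression is therefore read from the Myh4-led nuclei, and the source of their Ankrd2 UMIs was not tested. Within that group Ankrd2 was at 75.0 CPM in WT nuclei that also held Myh1 or Myh2 UMIs. It was at 16.7 CPM in those without any other myosin UMI, and the knockout levels were 13.1 and 1.42 CPM. The levels in Myh2-led and Myh1-led nuclei stood above those of the non-muscle-marked nuclei in both libraries.

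The lower Ankrd2 level in Myh2-led nuclei was also found in subsets. In Y-marked Myh2-led nuclei it was at 631 CPM (559 to 710) in WT and 276 CPM (223 to 337) in the knockout, a log2 ratio of -1.19. In the Xist-marked Myh2-led knockout nuclei it was at 115 CPM (73.4 to 171), lower again. At equal depth, 22.0% (18.5 to 25.9) of 504 WT and 7.17% (4.23 to 11.2) of 237 knockout Myh2-led nuclei held an Ankrd2 UMI, against 1.08% and 0% of non-muscle-marked nuclei. Before thinning the shares were 34.2% of the Myh2-led nuclei at a median of 893.5 UMIs and 24.6% at a median of 1885 UMIs. The gene lies at chr19:42036000-42045110 on the plus strand of GRCm38, with no overlapping gene.

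Ankrd1, also called CARP, had few UMIs in every myosin group. It lies at chr19:36111961-36120099 on the minus strand of GRCm38, with no overlapping gene. In Myh4-led nuclei it had 11 UMIs in WT (1.71 CPM) and 14 in the knockout (1.24 CPM), and in Myh2-led nuclei 11 in WT and 0 in the knockout, where 3 UMIs would be 4.06 CPM. In Myh1-led nuclei it had 1 UMI in WT and 10 in the knockout. The UMIs were too few for a ratio in the Myh1-led, Myh2-led and Myh7-led groups, and in Myh4-led nuclei the log2 ratio of -0.48 had an interval of -1.71 to 0.82.

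Lmcd1 and Ldb3 were measured in every group. Lmcd1 encodes a LIM and cysteine-rich domain protein known as a regulator of GATA factors and calcineurin signalling. In Myh2-led nuclei the Lmcd1 level was 903 CPM (840 to 969) in WT and 511 CPM (460 to 565) in the knockout, 1.77-fold lower (1.56 to 2.01). This log2 ratio of -0.82 was -0.87 in Y-marked nuclei, and -0.23 in nuclei with 1 myosin gene only, a setting chosen after the data were seen. It was past 2-fold under 4 alternatives: scaling to the median gene, at least 500 genes, at least 1000 UMIs, and Xist-marked knockout against Y-marked WT nuclei. Within the Myh2-led knockout nuclei Lmcd1 was at 589 CPM (511 to 676) where Y-marked and 267 CPM (202 to 347) where Xist-marked. In Myh1-led nuclei it was at 524 CPM (484 to 565) and 463 CPM (429 to 499), and in Myh4-led nuclei at 53.1 CPM (47.6 to 59.1) and 64.0 CPM (59.4 to 68.8). The direction in Myh4-led nuclei was not stable, since the log2 ratio was 0.27 in all nuclei, -0.42 in Y-marked nuclei, 0.99 at 500 to under 1000 UMIs and -0.47 at 2000 UMIs or more. The WT level there lay at that of non-muscle-marked nuclei, 54.8 CPM (30.7 to 90.4). In Myh7-led nuclei Lmcd1 had 1 UMI in WT and 25 in the knockout, a log2 ratio of 1.23 with an interval of -0.83 to 7.14. The gene lies at chr6:112273758-112330425 on the plus strand of GRCm38 and overlaps Gm44193 on its own and 5031434C07Rik on the opposite strand. The sources used here do not state whether strand was used in the counting, and a part of its UMIs is of uncertain origin.

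Ldb3, also called ZASP or Cypher, binds alpha-actinin through its PDZ domain. Its levels differed little between the libraries, at 1245 CPM (1218 to 1272) in WT and 1292 CPM (1272 to 1314) in the knockout in Myh4-led nuclei, 1975 and 1841 CPM in Myh1-led, 2203 and 2067 CPM in Myh2-led, and 1985 and 1965 CPM in Myh7-led nuclei. The log2 ratio of Ldb3 lay between -0.10 and 0.10 in all 5 groups. Its sign in Myh4-led nuclei, 0.05, turned to -0.07 with the reduced denominator, so that no direction is given for it. The non-muscle-marked nuclei held Ldb3 at 603 CPM in WT against 323 CPM in the knockout.

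Col22a1-positive nuclei held other genes known from the myotendinous junction, where muscle fibres join the tendon. Col24a1 stood at 444 CPM in WT against 258 CPM in the knockout in these nuclei, against 76.8 and 22.8 CPM in Col22a1-negative nuclei. Of the 4 tenocyte markers, Tnmd and Scx were at 0 UMIs in both libraries. Thbs4 had 3 UMIs in WT and 0 in the knockout, and Mkx had 1 in each. In Col22a1-negative nuclei Tnmd had only 4 UMIs in WT and 2 in the knockout, and Scx 0 and 2. The counts of 0 therefore do not measure tenocyte content. By leading myosin, 73.0% (66.3 to 79.0) of the Col22a1-positive nuclei were Myh4-led in WT and 83.1% (78.4 to 87.1) in the knockout. Most held a single Col22a1 UMI, since 32 WT and 128 knockout nuclei held at least 2, at median depths of 769.5 and 2480 UMIs of the Col22a1-positive nuclei. The groups thus mix junctional nuclei with others, by an amount that was not tested.

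Igfn1 and Ankrd1 had the largest ratios in either direction in Col22a1-positive nuclei. The Igfn1 level there was 9.87 CPM (1.20 to 35.7, 2 UMIs) in WT and 314 CPM (279 to 351, 297 UMIs) in the knockout, a log2 ratio of 4.67 with a wide interval of 3.12 to 8.04. Among Myh4-led knockout nuclei Igfn1 was at 357 CPM (318 to 401) in those with Col22a1 and 194 CPM (185 to 202) in those without, a log2 difference of 0.89 (0.70 to 1.06). Those nuclei were also deeper, with medians of 2742 and 1772.5 UMIs. In WT the same comparison rested on 1 Igfn1 UMI against 165.

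Ankrd1 was higher in Col22a1-positive than in Col22a1-negative nuclei of each library. In WT it was at 44.4 CPM (20.3 to 84.3, 9 UMIs) against 2.20 CPM (1.36 to 3.37, 21 UMIs), and in the knockout at 18.0 CPM (10.5 to 28.7, 17 UMIs) against 0.596 CPM (0.273 to 1.13, 9 UMIs). The log2 difference within the library was 4.38 (3.02 to 5.52) in WT against 4.88 (3.67 to 6.26) in the knockout. The WT nuclei marked as non-muscle held 2 Ankrd1 UMIs (7.30 CPM) and those of the knockout held 0. In the 79 knockout nuclei with at least 3 Col22a1 UMIs the level was 54.2 CPM, with 16 of the 26 Ankrd1 UMIs of that library. Between genotypes the Ankrd1 level in Col22a1-positive nuclei was lower in the knockout, at a log2 ratio of -1.34, but the interval of -2.55 to 0.04 includes 0. The interval therefore does not set a direction.

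Each of the other listed genes had overlapping intervals of its level between genotypes in Col22a1-positive nuclei. Actn2 was at 686 CPM (577 to 810) in WT and 674 CPM (622 to 728) in the knockout, Actn3 at 370 CPM (291 to 464) and 322 CPM (287 to 360), and Myoz1 at 316 CPM (243 to 403) and 306 CPM (272 to 344). The intervals of Myoz2, Myoz3, Ankrd2, Lmcd1 and Ldb3 overlapped too. Lmcd1 was at 193 CPM (137 to 263) in WT against 138 CPM (116 to 164), but in Y-marked Col22a1-positive nuclei at 397 CPM (268 to 566) against 107 CPM (83.1 to 136), a log2 ratio of -1.90 (-2.53 to -1.21). Myoz2 had 4 UMIs in WT and 42 in the knockout, a log2 ratio of 1.01 (-0.30 to 3.11), and its WT level of 19.7 CPM lay under that of the non-muscle-marked nuclei. Ankrd2 had 8 and 11 UMIs, too few for a ratio. In each library it was lower in Col22a1-positive than in Col22a1-negative nuclei, with log2 differences of -1.37 in WT and -1.16 in the knockout. Among Myh4-led nuclei alone, with Col22a1 over without, the sign was the opposite. The WT log2 difference was then 1.22, with an interval of -0.10 to 2.16. For knockout nuclei it was 0.46, resting on 2 UMIs against 23, with an interval of -2.96 to 2.18. Both intervals include 0, so no direction is given. Whether the share of Myh4-led nuclei accounts for the lower level was not tested.

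Other genes of the Z-disc and of the stretch response were read from a list of 42, all found in the files. In Myh4-led nuclei 42 had a ratio, with a median log2 ratio of 0.02. Of these, 3 were more than 2-fold higher in the knockout, against 5.33% of all genes with a ratio. More than 2-fold lower were 4, against 21.6%. The highest were Pdlim3, which encodes the actinin-associated LIM protein, at 327 CPM (314 to 342) in WT and 1071 CPM (1052 to 1090) in the knockout, Smpx at a log2 ratio of 1.31 and Cryab, a small heat shock protein, at 1.23. The lowest with at least 100 UMIs were Nebl at -2.94, Ankrd23 at -1.21 and Pdlim1 at -0.88. Ankrd23, the third gene of the ankyrin repeat family of Ankrd1 and Ankrd2, was at 59.6 and 25.8 CPM in Myh4-led, 81.3 and 24.8 CPM in Myh1-led and 105 and 17.6 CPM in Myh2-led nuclei of WT and the knockout. It was thus lower in the knockout in the same 3 groups as Ankrd2, a comparison made after its values were seen. Ankrd23 was not read in non-muscle-marked nuclei, and for Ankrd2 no difference in expression was read from Myh4-led nuclei.

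For the other groups of nuclei the counts on this list are given beside the share of all genes with a ratio. In Myh1-led nuclei 1 of 37 genes with a ratio, Hspb8, was more than 2-fold higher, against 8.23%, and 4 were lower, against 5.80%. In Myh2-led nuclei 0 of 37 were higher, against 9.99%, and 2, Flnc and Ankrd23, were lower, against 4.91%. In Myh7-led nuclei 6 of 16 were higher, against 27.7%, and 0 lower, against 6.32%. In Col22a1-positive nuclei 5 of 33 were higher, against 12.9%, and 1 was lower, against 6.54%. Among those with at least 100 UMIs there, the highest were Smpx at a log2 ratio of 1.61, Pdlim3 at 1.59 and Hspb8 at 1.50, and the lowest were Flnc, which encodes filamin C, at -1.25, Nfatc1 at -0.58 and Xirp2 at -0.53.

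Genes with the most similar pattern were ranked by Pearson's r of log2(CPM + 1) over 10 values, from 5 groups of nuclei in 2 libraries, among 7668 genes with at least 200 UMIs. These values share libraries and, for Col22a1-positive nuclei, also nuclei. They include the Myh7-led WT nuclei, where Igfn1 had 3 UMIs and Eps15, Setd7 and Yes1 had 2 each, so that the values of r for Igfn1 rest in part on levels at or under 3 UMIs. In the same nuclei Actn3 had 3 UMIs, Gdap1 and Sort1 had 1 each, Ankrd2 had 2, and Apol6 and Pdlim1 had 1 each. This limit thus also holds for the values of r for Actn3 and Ankrd2, and for that of Pdlim1 with Myoz2. For Igfn1 they were Eps15 at r = 0.962, Setd7 at 0.951 and Yes1 at 0.927. For Actn3 they were Gdap1 at 0.970, Sort1 at 0.968 and Prkag3 at 0.965. For Myoz2 they were Homer2 at 0.983, Myom3 at 0.979 and Pdlim1 at 0.955, and for Ankrd2 they were Apol6 at 0.967, Pitpnc1 at 0.953 and Ppp1r12b at 0.947. Ankrd1 had too few UMIs to be ranked. The likeness of Eps15 to Igfn1 was one of pattern and not of size, since Eps15 was at 115 CPM in WT against 181 CPM in the knockout in Myh4-led nuclei.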

How the data were processed

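The matrices that the authors deposited hold whole UMI counts, not normalized; per the file headers they were written by Cell Ranger version 6.0.0. Muscle was minced and homogenised, and nuclei were strained and captured with the 10x Genomics 3′ kit, per the labels' protocols. STAR, Seurat 4.1.1 and the builds mm10 and GRCm38 are named per the submitters' processing notes. The annotation release, intron counting and strand use were not given in the sources used here. Gene identifiers and barcodes are other columns that the authors deposited as text.

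The genes, lists and comparisons were chosen with earlier results of these data known. Kept nuclei had 200 or more detected genes and no more than 5% of UMIs from mitochondrially encoded genes. Doublets were not removed; Xist and Y-linked UMIs occurred together in 2 WT and 221 knockout nuclei. A nucleus was assigned to the myosin gene (Myh1, Myh2, Myh4 or Myh7) with strictly the most UMIs; ties (390 WT, 78 knockout) and nuclei without myosin UMIs (1397, 1790) were set apart. UMIs were summed per library and group. Levels carry exact Poisson intervals. Log2 ratios, with 0.5 UMI added to each sum, carry exact conditional binomial intervals, and shares carry Clopper-Pearson intervals, all at 95%. Nuclei and PCR copies are not replicates, so intervals cover counting error only. A ratio needed 20 UMIs over both libraries, and "called" meant past 2-fold. Thinning drew 500 UMIs per nucleus without replacement. All groups, the non-muscle-marked nuclei included, were set again from the thinned counts, so shares before and after thinning are of different sets of nuclei. On simulated sums for Myh4-led nuclei over 14927 genes, 99.5% of 190 genes changed 4-fold were recovered past 2-fold. The simulation held counting error only and genes with at least 20 UMIs. It had no variation between animals or libraries, so it does not bear on replicate error. Named genes are all 10 members and, from the list of 42, the 3 highest and 3 lowest ratios with at least 100 UMIs in Myh4-led and in Col22a1-positive nuclei. Gene positions are from GENCODE M21 on GRCm38. Python 3.11.15, numpy 2.4.6, scipy 1.17.1, pandas 2.3.3 and matplotlib 3.10.9 were used.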

Additional observations from a re-analysis of the deposited data

Results flagged for a closer look

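Ratios of 4 genes had intervals on opposite sides of 0 in different groups of nuclei, and the differences between groups were not tested. For Myoz2 the log2 ratio, knockout over WT, was 1.29 in Myh1-led and -2.32 in Myh4-led nuclei, a gap of 3.61, with the Myh4-led levels under those of non-muscle-marked nuclei. For Lmcd1 it was 0.27 in Myh4-led and -0.82 in Myh2-led nuclei, a gap of 1.09. For Actn2 it was 0.07 in Myh1-led and -0.39 in Myh2-led nuclei, a gap of 0.46. For Ldb3 it was 0.05 in Myh4-led and -0.10 in Myh1-led nuclei, a gap of 0.15, which is close to the shift of -0.13 that another denominator gives.

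Signal was also found in nuclei that belong to no myosin group. In nuclei without a myosin UMI the Igfn1 level was 19.5 CPM (11.4 to 31.2) in WT and 39.3 CPM (31.6 to 48.3) in the knockout, a log2 ratio of 0.98, near the levels of the non-muscle-marked nuclei. In nuclei with a tie between myosin genes the Myoz3 level was 46.9 CPM (26.3 to 77.4) in WT and 174 CPM (111 to 258) in the knockout, a log2 ratio of 1.87.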

How the results depend on the processing

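With 1 library per genotype no library could be left out, and no paired analysis was possible because there were no replicates. Of 15 alternatives, 2 were chosen after the data were seen (nuclei with 1 myosin gene only and nuclei without shared barcodes). Of 568 values of single ratios under them, 462 lay within the interval of the reported ratio, 104 lay outside it and 2 of those past 2-fold changed sign. These were Myoz2 in Myh1-led nuclei, at -0.27 for Xist-marked knockout against Y-marked WT nuclei, and Myoz2 in Col22a1-positive nuclei, at -0.30 as a mean over nuclei. The Igfn1 ratio in Myh4-led nuclei stayed between 2.86 and 4.28, and that of Ankrd2 in Myh2-led nuclei between -2.43 and -1.19, past 2-fold in all 15. In Myh4-led nuclei the count higher was 1 in all 15, and the count lower was 2 in all but 1, being 3 with Actn2 added for Xist-marked knockout nuclei.

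The counts of genes past 2-fold in other groups moved as follows; the cause was not tested. Higher in Myh1-led nuclei: 1 in place of 2 after thinning, for Xist-marked knockout nuclei and with at least 100 UMIs. Lower in Myh1-led nuclei: 2 in place of 0 for Xist-marked knockout nuclei and 1 with 1 myosin gene only. Higher in Myh2-led nuclei: 1 in place of 0 with 1 myosin gene only. Lower in Myh2-led nuclei: 1 in place of 2 in Y-marked nuclei, 4 for Xist-marked knockout nuclei and 3, with Lmcd1 added, when scaled to the median gene. Higher in Myh7-led nuclei, where 16 WT nuclei limit every value: 2 in place of 1 as a mean over nuclei, and 0 after thinning, with scaling to the median gene, with at least 500 genes, 1000 UMIs or 100 UMIs of the gene, by Y or Xist mark, without Col22a1-positive nuclei and with 1 myosin gene only. Higher in Col22a1-positive nuclei: 0 in place of 2 after thinning, and 1 with the reduced denominator, scaling to the median gene, the mean over nuclei, Xist-marked knockout nuclei, at least 100 UMIs and without shared barcodes, and 3, with Actn2 added, with grouping from 2 UMIs. Lower in Col22a1-positive nuclei: 0 in place of 1 after thinning, with grouping from 2 UMIs, at least 500 genes, Xist-marked knockout nuclei and at least 100 UMIs. After thinning, and with at least 100 UMIs, fewer genes had a ratio. Equal counts named other genes in some cases: Myoz2 and Myoz3 higher in Y-marked Myh1-led nuclei, Ankrd2 and Lmcd1 lower in Myh2-led nuclei with at least 500 genes or 1000 UMIs, Myoz2 higher in Myh7-led nuclei without non-muscle markers, and Lmcd1 lower in Col22a1-positive nuclei that were Y-marked or had at least 1000 UMIs.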
